A study of Mus musculus with 16 samples.

Results

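Ubiquitin-specific proteases form the largest family of deubiquitinases, and this account covers the 46 genes of the deposited table whose symbol starts with Usp followed by a digit, out of 13100 genes. All 46 passed the filter on low values (at least 1 FPKM in at least 2 libraries), and 38 of them were at 1 FPKM or more in every library. FPKM divides fragments by library size and by transcript length, so levels of different genes can be compared per length. Of the 46, 5 lie on the X chromosome, 1 on the Y chromosome and 40 on autosomes. Usp6nl carries the name but encodes a GTPase-activating protein with no protease activity, which leaves 45 genes of the family proper. Family members that are not in the table, such as Usp3, Usp13, Usp18 and Usp29, were not analysed here.

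Ubiquitin is a small protein that is attached to other proteins, and most commonly marks them for the proteasome, for sorting in endosomes or, on histones H2A and H2B, for chromatin regulation and DNA repair. Ubiquitin-specific proteases are cysteine proteases that cut it off again, each with its own partners and substrates. In male germ cells ubiquitin on histones marks the silenced X and Y chromosomes of meiosis, and it appears again in spermatids when histones are exchanged for protamines.

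RNA came from spermatogenic cells sorted from the testes of male C57BL/6J mice aged 8 weeks. The mutant genotype was Tex10f/-; Stra8iCre (KO in the titles), with a floxed and a null Tex10 allele and an iCre recombinase under the Stra8 promoter, which is active from differentiating spermatogonia on, so cells before that point still hold a floxed copy. Wild-type mice (WT, with C in the titles) were the control. Both genotypes were sampled as spermatogonia, MI spermatocytes, MII spermatocytes and spermatids, with 2 libraries in each of 8 groups and 16 in all. The sources used here give neither the sorting method nor whether both libraries of a group stem from different animals. The p-values therefore measure only how far these libraries differ, which may be technical.

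The targeted gene was checked first. Tex10, a nuclear protein of ribosome maturation, had 13.6 and 18.96 in spermatogonia, 10.9 and 14.6 in MI, 8.11 and 7.29 in MII and 31.8 and 34.8 in spermatids (FPKM, KO libraries). Tex10 in wild type had 55.4 and 50.02 in spermatogonia, 63.1 and 57.5 in MI, 13.8 and 27.4 in MII and 98.8 and 116 in spermatids. Both KO libraries were below both wild-type libraries in every cell type, with an average log2 change of -1.68 ± 0.15 (± standard error throughout for log2 changes, limma adjusted p = 0.00049). Title and cell type field disagree for 6 of 8 KO libraries and 0 of 8 wild-type libraries. The best-correlated wild-type library had the cell type of the title for 8 of 8 KO libraries and that of the field for 2 of 8, and titles are used here. Read numbers are unknown, and 10044 to 12394 genes per library reached 1 FPKM. Replicates correlated with a Spearman rho across genes of 0.881 to 0.971, lowest in wild-type MII spermatocytes. The MII fractions held somatic transcripts, with 7 of 7 Leydig cell markers in the table summing to 1255 to 1459 FPKM in KO and 899 to 1391 FPKM in wild type, against 21.5 to 30.1 FPKM in wild-type MI spermatocytes. In these bulk libraries fewer cells of a type and less RNA per cell cannot be told apart.

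Promoter windows from 250 bases before to 50 bases after the transcript start (RefSeq, GRCm38.p6) were found for 36 of the 46 genes, in 37 windows. The median member window held 28 CG dinucleotides, against 7 over all 32851 windows. The 5 windows printed here, 5′ to 3′ on the gene's strand with each CG in capitals, belong to genes that carry the results below. Usp51 (chrX:153006219-153006518, plus strand) was the single member called between the genotypes, and its window holds 6 CG. Usp27x (chrX:7375781-7376080, minus strand) is its X-linked relative of like gene structure, with 25 CG. Usp25 (chr16:77013819-77014118, plus strand, 54 CG) and Usp50 (chr2:126783411-126783710, minus strand, 2 CG) had the largest rises in spermatids, from windows that differ most in CG content among these 5. Usp26 (chrX:51801184-51801483, minus strand, 5 CG) had the largest fall between spermatogonia and MI spermatocytes.
Usp51: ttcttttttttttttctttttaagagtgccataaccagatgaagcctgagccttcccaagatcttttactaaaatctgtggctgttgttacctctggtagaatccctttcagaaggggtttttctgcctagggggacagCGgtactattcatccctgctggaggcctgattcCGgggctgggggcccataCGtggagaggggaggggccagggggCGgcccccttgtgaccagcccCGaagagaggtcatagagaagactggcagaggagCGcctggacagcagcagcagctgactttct
Usp27x: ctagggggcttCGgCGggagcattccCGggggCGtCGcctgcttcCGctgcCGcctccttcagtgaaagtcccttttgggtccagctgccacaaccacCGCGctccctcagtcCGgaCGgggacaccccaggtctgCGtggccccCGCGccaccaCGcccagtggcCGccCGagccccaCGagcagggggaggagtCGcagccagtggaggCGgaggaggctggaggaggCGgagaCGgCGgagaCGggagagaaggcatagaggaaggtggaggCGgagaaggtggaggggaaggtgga
Usp25: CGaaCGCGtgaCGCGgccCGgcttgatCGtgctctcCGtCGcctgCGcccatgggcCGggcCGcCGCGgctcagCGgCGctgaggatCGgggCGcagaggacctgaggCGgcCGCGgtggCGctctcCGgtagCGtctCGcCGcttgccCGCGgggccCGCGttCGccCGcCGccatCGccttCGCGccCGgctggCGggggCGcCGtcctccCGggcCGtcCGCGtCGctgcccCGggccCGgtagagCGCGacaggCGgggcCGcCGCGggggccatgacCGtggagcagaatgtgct
Usp50: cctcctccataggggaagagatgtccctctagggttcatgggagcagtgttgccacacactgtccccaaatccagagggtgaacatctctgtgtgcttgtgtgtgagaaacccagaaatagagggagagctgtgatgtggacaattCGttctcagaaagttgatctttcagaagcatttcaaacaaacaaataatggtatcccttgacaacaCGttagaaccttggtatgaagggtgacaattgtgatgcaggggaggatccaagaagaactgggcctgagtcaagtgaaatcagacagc
Usp26: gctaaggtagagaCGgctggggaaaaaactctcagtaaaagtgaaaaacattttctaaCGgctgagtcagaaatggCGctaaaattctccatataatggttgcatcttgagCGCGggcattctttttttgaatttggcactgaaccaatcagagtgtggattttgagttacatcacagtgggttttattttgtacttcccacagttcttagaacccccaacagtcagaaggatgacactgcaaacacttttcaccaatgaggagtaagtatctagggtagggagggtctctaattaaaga
Of all windows, 47.9% have as few CG as that of Usp51 or fewer, 83.1% as few as Usp27x, 99.7% as few as Usp25, 23.3% as few as Usp50 and 43.6% as few as Usp26. The letters TGACG, a core of the cAMP response element that the CREM family binds, were searched on both strands. They were found in 32.4% of the 37 member windows and 20.8% of all windows. Among members called higher in wild-type spermatids than in MI spermatocytes the share was 36.4% of 11 windows, and among those called lower 16.7% of 6 windows. Among members called higher in wild-type MI spermatocytes than in spermatogonia it was likewise 36.4% of 11 windows, and among those called lower 25% of 8 windows. A match describes letters in the window and not a bound site. These letters include a CG, and member windows held more CG than all windows (medians of 28 and 7). Windows of members called higher had a median of 34 CG in either step. For those called lower it was 18 in spermatids and 25 in MI spermatocytes. The windows were not matched for CG, so whether the shares exceed what base content gives was not tested.

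Most of the family was transcribed in every fraction, and its summed FPKM was highest in spermatids, while its share of all FPKM overlapped between spermatids and MI spermatocytes. The sum over the 46 genes was 862 to 1140 FPKM in KO and 956 to 1149 FPKM in wild-type spermatogonia, 1677 to 1722 FPKM in KO and 1677 to 1887 FPKM in wild-type MI spermatocytes, 610 to 789 FPKM in KO and 723 to 996 FPKM in wild-type MII spermatocytes, and 2818 to 2863 FPKM in KO and 2896 to 3664 FPKM in wild-type spermatids. Both KO libraries lay below both wild-type libraries in spermatids, but the FPKM of all genes differed between fractions too, with 481973 to 533859 in spermatids and 257647 to 302210 in MI spermatocytes. As a share of all FPKM the family made up 0.549 to 0.594% in KO and 0.565 to 0.686% in wild-type spermatids, where the genotypes overlapped, and 0.569 to 0.668% in KO and 0.605 to 0.625% in wild-type MI spermatocytes. The share was 0.459 to 0.569% in KO and 0.485 to 0.576% in wild-type spermatogonia, and lowest in MII spermatocytes, with 0.228 to 0.281% in KO and 0.274 to 0.400% in wild type. Of the 46 genes, 23 had their highest wild-type mean in spermatids, 12 in spermatogonia, 7 in MII spermatocytes and 4 in MI spermatocytes. The cell type of the highest mean was the same in KO for 37 of 46 genes.

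**Figure D1:**
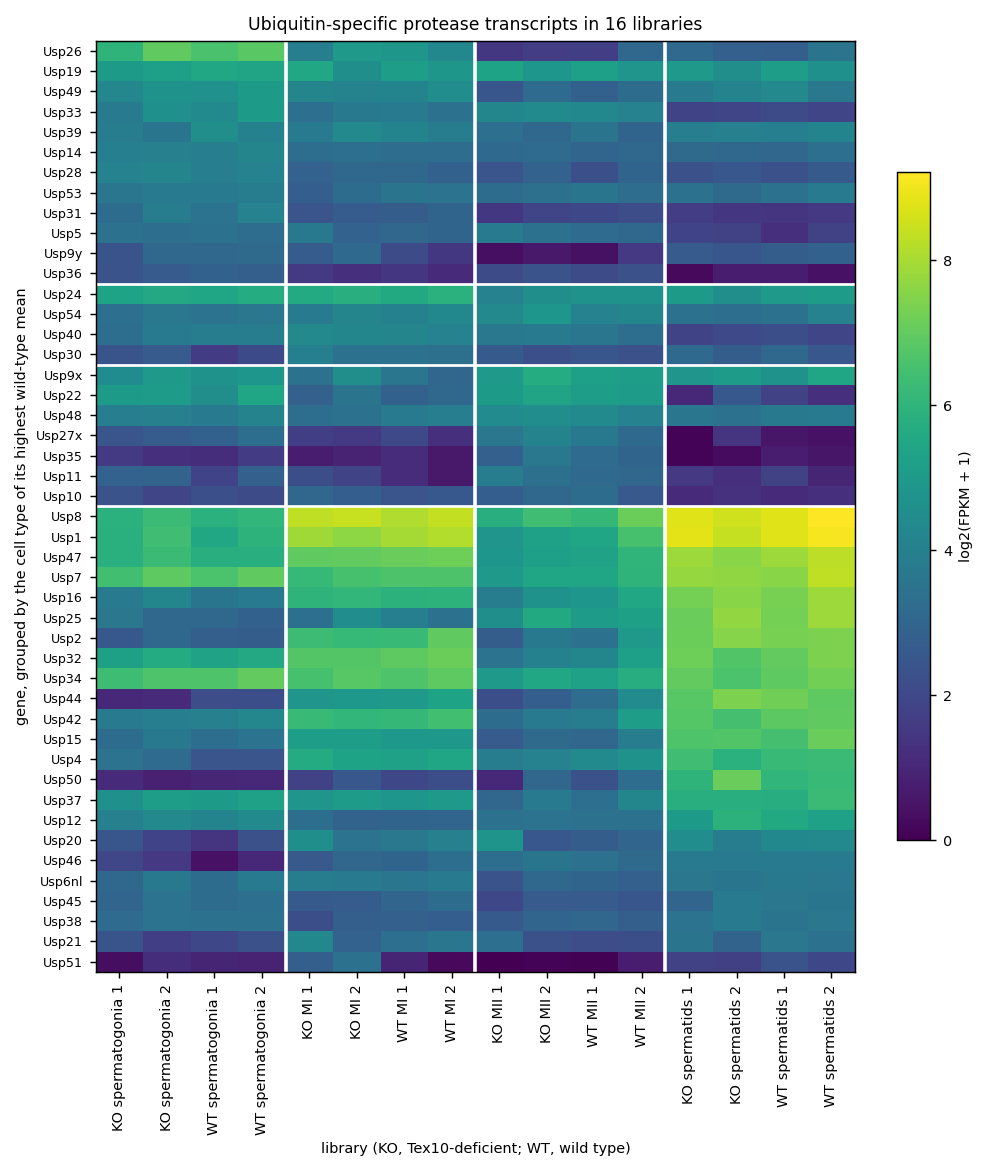
Levels of the 46 genes as log2(FPKM + 1), by library (columns, KO left of wild type in each cell type) and gene (rows, grouped by the cell type of the highest wild-type mean). The block of 23 genes highest in spermatids is the largest. Within its row Usp51 is highest in the 2 KO MI libraries, at values that are low on the shared color scale.

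The most abundant members changed with the cell type. Usp34, a large protease that acts on Axin in Wnt signalling (chr11:23306895-23490560 in mm10), had 79.8 and 100.1 in spermatogonia, 90.8 and 113 in MI, 30.1 and 44.96 in MII and 127 and 95.04 in spermatids (FPKM, KO). Usp34 in wild type had 102 and 127 in spermatogonia, 102 and 122 in MI, 37.2 and 52.9 in MII and 121 and 153 in spermatids. It was the highest member in wild-type spermatogonia, although 17.5% of its longest transcript overlaps Ahsa2 on the other strand, and the sources used here do not give the strand setting of the counting. Usp7, which deubiquitinates Mdm2 and p53 and works with a variant Polycomb complex, had 84.8 and 119 in spermatogonia, 70.6 and 91.5 in MI, 29.8 and 41.3 in MII and 215 and 206 in spermatids (FPKM, KO). Usp7 in wild type had 96.6 and 123 in spermatogonia, 97.96 and 98.2 in MI, 43.2 and 62.1 in MII and 189 and 320.2 in spermatids. It stayed in the upper range of the family in every fraction and was highest in spermatids of both genotypes.

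Usp8, an endosomal protease of the ESCRT pathway that is abundant in mouse testis, was the highest member in wild-type MI spermatocytes, MII spermatocytes and spermatids. Usp8 had 57.4 and 75.96 in spermatogonia, 322 and 346 in MI, 53.5 and 82.3 in MII and 429 and 369.6 in spermatids (FPKM, KO). Usp8 in wild type had 58.5 and 67.6 in spermatogonia, 278 and 332 in MI, 69.6 and 141 in MII and 433 and 592 in spermatids. Its gene body (chr2:126707328-126759297) overlaps that of Usp50 on the opposite strand, while exons of their longest transcripts do not overlap. Usp1, which with Wdr48 removes ubiquitin from Fancd2 and PCNA, came second in those fractions with 56.3 and 81.8 in spermatogonia, 236 and 199.6 in MI, 26.96 and 37.2 in MII and 459.9 and 341 in spermatids (FPKM, KO). Usp1 in wild type had 43.4 and 61.7 in spermatogonia, 247 and 281 in MI, 41.6 and 90.6 in MII and 438 and 540.1 in spermatids. Of the 50-base words of its transcript, 22.8% also occur in the pseudogene Gm5841, and how reads of such words were assigned is not known, so its level is uncertain. Usp47, a protease of DNA polymerase beta in base excision repair, had 57.1 and 76.6 in spermatogonia, 125 and 128 in MI, 27.8 and 35.6 in MII and 234 and 191 in spermatids (FPKM, KO). Usp47 in wild type had 54.6 and 54.97 in spermatogonia, 136 and 145 in MI, 38.4 and 64.7 in MII and 231 and 316 in spermatids. All 3 of these genes were several times higher in spermatids than in spermatogonia in both genotypes.

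The genotypes were compared for transcripts that differ where Tex10 is targeted, and within this family 1 gene passed the test. Tex10 RNA was lowered in KO and not absent. Its KO mean was 30.9% of the wild-type mean in spermatogonia, 21.1% in MI, 37.4% in MII and 31.0% in spermatids. Whether this remainder limits the calls was not tested. Usp51 was higher in KO MI spermatocytes than in wild-type MI spermatocytes, and none of the other 45 members was called in any cell type, in the average over cell types or in the F test of whether the genotype change differs between cell types. Values were compared as log2(FPKM + 1) with limma over 13099 genes in 1 fit of all 16 libraries, and calls needed a p under 0.05 after Benjamini-Hochberg adjustment. Among all genes 0.168% were called in MI spermatocytes (0.0534% higher), 0.0153% in spermatogonia, 0.00763% in MII spermatocytes, 0.0% in spermatids, 0.0992% in the average and 0.0% in the F test. In spermatids Tex10 itself was thus not called. In spermatogonia the 2 called genes were higher in KO, so Tex10, which was lower, was not called there either. A missing call in a single cell type therefore does not show an unchanged level. At an unadjusted p under 0.05 there were 3 members in spermatogonia, 3 in MI, 8 in MII, 0 in spermatids, 5 in the average and 5 in the F test, where all genes gave 6.6%, 5.84%, 13.3%, 2.17%, 11% and 6.49%. The median log2 change of the members was -0.06 in spermatogonia, 0.03 in MI, -0.10 in MII and -0.11 in spermatids, beside -0.01, -0.0028, -0.02 and -0.02 over all genes.

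**Figure D2:**
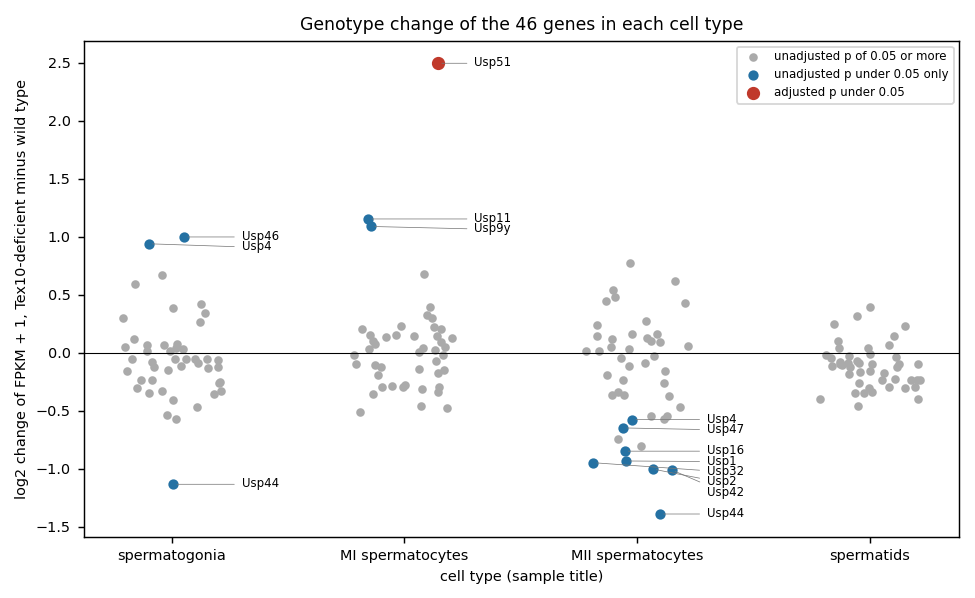
Log2 change of FPKM + 1, KO minus wild type (y axis), of the 46 genes in each cell type (x axis, points spread sideways for legibility). Usp51 in MI spermatocytes stands at 2.50 and is the single point past the adjusted threshold, with labels on points at an unadjusted p under 0.05.

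Usp51 (XLOC_023475, chrX:153006469-153009416 in mm10, plus strand) encodes a protease that in human cells removes ubiquitin from histone H2A after DNA damage and from H2B together with Atxn7l3 and Eny2. It had 5.91 and 9.70 FPKM in KO MI spermatocytes, against 0.949 and 0.190 FPKM in wild-type MI spermatocytes. Both KO libraries were above every other library of the series, of which the next highest was a wild-type spermatid library, and both wild-type MI libraries were under 1 FPKM. Usp51 averaged 7.80 ± 2.68 FPKM in KO MI spermatocytes and 0.570 ± 0.537 FPKM in wild-type MI spermatocytes (SD, n = 2 each), a log2 change 2.50 ± 0.37, adjusted p = 0.014 with limma. In spermatogonia it had 0.261 and 1.32 FPKM in KO spermatogonia, against 0.922 and 0.879 FPKM in wild-type spermatogonia. In MII spermatocytes it had 0 and 0.0669 FPKM in KO MII spermatocytes, against 0.0494 and 0.624 FPKM in wild-type MII spermatocytes, where 1 KO library is listed at 0. In spermatids it had 2.50 and 2.38 FPKM in KO spermatids, against 4.12 and 3.01 FPKM in wild-type spermatids. KO and wild-type libraries overlapped in spermatogonia and MII spermatocytes, and in spermatids both KO libraries were below both wild-type libraries (limma, adjusted p = 1.0). The F test of a genotype change that differs between cell types gave an unadjusted p of 0.00016 in limma and an adjusted p of 0.209, so the difference between cell types did not pass over all genes.

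The call of Usp51 rests on few libraries at low levels. It was lost without KO MI replicate 1 (log2 change 2.81, limma adjusted p = 0.066), without KO MI replicate 2 (2.18, adjusted p = 0.19) and without wild-type MI replicate 2 (2.14, adjusted p = 0.34), with a pseudocount of 0.1 (3.80, adjusted p = 0.25) and in a fit of the 4 MI libraries alone (adjusted p = 0.080). No annotated exon overlaps its transcript and no 50-base word of it occurs in another annotated gene. How reads were assigned was not measured. Transcripts of other stages did not all differ in the same direction, and their part in the result was not tested. The 9 round spermatid markers summed to 528 to 572 FPKM in KO MI and 575 to 692 FPKM in wild-type MI spermatocytes. Of their estimates 6 were positive and 0 were called. Among 10 late spermatocyte markers 7 estimates were negative and 0 were called. The 9 elongating spermatid markers, none of them at 0, summed to 202 to 276 FPKM in KO MI and 103 to 140 FPKM in wild-type MI spermatocytes, with 8 of 9 estimates positive and 0 called. Wild-type spermatids, where the same markers summed to 11954 to 13458 FPKM, averaged 3.57 ± 0.782 FPKM of Usp51 (SD, n = 2). The 24 X-linked housekeeping genes summed to 189 to 275 FPKM in KO MI and 141 to 256 FPKM in wild-type MI spermatocytes, which overlap. Of their estimates 18 were positive and 0 were called. Of 483 X-linked genes tested, 4 with Usp51 among them (0.828%) were called higher in KO MI spermatocytes, against 0.0247% of autosomal genes. The median log2 change was 0.25 for X-linked and -0.01 for autosomal genes. The 8 Y-linked genes had a median of 0.83, with 7 of 8 estimates positive and 0 called.

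The other members on the sex chromosomes were not called between genotypes. Usp11, a nuclear protease of the Brca2 pathway (chrX:20703906-20720539), had 3.61 and 2.74 FPKM in KO MI spermatocytes, against 1.26 and 0.543 FPKM in wild-type MI spermatocytes. Its KO libraries were above the wild-type libraries without overlap, with a log2 change 1.15 ± 0.39, adjusted p = 0.502 in limma. Usp9y, the Y-linked copy of Usp9x (chrY:1298961-1459782), had 5.36 and 7.77 FPKM in KO MI spermatocytes, against 3.34 and 1.84 FPKM in wild-type MI spermatocytes. These groups did not overlap either, and 15.7% of all genes had both KO MI libraries above both wild-type MI libraries. Beside the median of 0.83 over the 8 Y-linked genes, Usp9y had a log2 change 1.09 ± 0.39, adjusted p = 0.584 in limma. Usp9x, which stabilises Mcl1 among many substrates (chrX:13071498-13173328), had 10.001 and 22.7 FPKM in KO MI spermatocytes, against 11.3 and 7.32 FPKM in wild-type MI spermatocytes, and 1 KO library lay inside the wild-type range. Usp27x, which with Atxn7l3 and Eny2 acts on H2B in human cells (chrX:7371276-7375830), had 2.24 and 1.98 FPKM in KO MI spermatocytes, against 3.08 and 1.45 FPKM in wild-type MI spermatocytes. Usp26, a germ cell protease that acts on the androgen receptor (chrX:51753959-51801233), had 14.3 and 30.7 FPKM in KO MI spermatocytes, against 28.1 and 18.7 FPKM in wild-type MI spermatocytes. In both of these genes the KO and wild-type MI libraries overlapped.

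In the remaining fractions these genes had the following levels. Usp11 had 6.54 and 6.68 in spermatogonia, 13.5 and 9.54 in MII and 1.85 and 1.34 in spermatids FPKM in KO. Usp11 in wild type had 2.59 and 6.08 in spermatogonia, 7.87 and 7.14 in MII and 2.56 and 0.932 in spermatids FPKM. It was highest in the MII fraction of both genotypes. Usp9y had 4.31 and 7.33 in spermatogonia, 0.293 and 0.555 in MII and 5.24 and 4.58 in spermatids FPKM in KO. Usp9y in wild type had 7.59 and 8.02 in spermatogonia, 0.325 and 1.91 in MII and 5.60 and 6.27 in spermatids FPKM, so that it was lowest in the MII fraction. Usp9x had 21.2 and 29.6 in spermatogonia, 29.5 and 50.7 in MII and 27.1 and 32.9 in spermatids FPKM in KO. Usp9x in wild type had 24.7 and 27.4 in spermatogonia, 35.8 and 34.8 in MII and 24.8 and 41.4 in spermatids FPKM, with the genotypes overlapping in all 3 fractions. Usp27x had 4.37 and 5.39 in spermatogonia, 11.5 and 16.5 in MII and 0.0537 and 1.60 in spermatids FPKM in KO. Usp27x in wild type had 6.30 and 8.95 in spermatogonia, 12.4 and 7.81 in MII and 0.485 and 0.349 in spermatids FPKM, highest in the MII fraction. Usp26 had 62.6 and 124 in spermatogonia, 1.84 and 2.16 in MII and 7.83 and 6.06 in spermatids FPKM in KO. Usp26 in wild type had 93.6 and 116 in spermatogonia, 2.28 and 7.40 in MII and 5.94 and 10.6 in spermatids FPKM, and its level in spermatogonia was far above that in any other fraction.

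**Figure D3:**
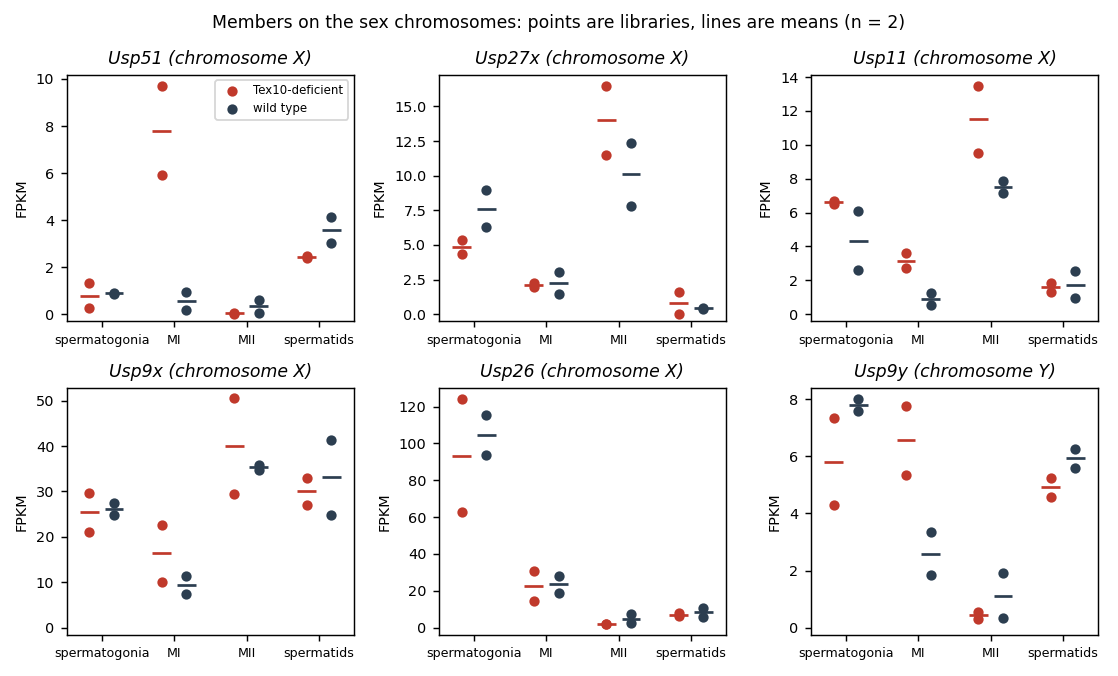
FPKM (y axis) of the 6 members on the X and Y chromosomes by cell type (x axis), KO in red left of wild type in dark blue, with a point per library and a line at the mean of 2. Usp51 in KO MI spermatocytes has 5.91 and 9.70 FPKM, above all other libraries, and Usp26 is highest in spermatogonia.

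Outside the sex chromosomes, the members with the smallest p in spermatogonia were Usp4, Usp46 and Usp44. Usp4, a relative of Usp15 that acts on TGF-beta receptors and, with Sart3, on a spliceosome protein, had 10.3 and 8.43 FPKM in KO spermatogonia, against 4.33 and 4.43 FPKM in wild-type spermatogonia (limma, log2 change 0.94, adjusted p = 0.329). Usp46, which like Usp12 needs Wdr48 for activity, had 2.87 and 1.92 FPKM in KO spermatogonia, against 0.381 and 1.05 FPKM in wild-type spermatogonia (limma, log2 change 0.998, adjusted p = 0.443). Usp44, a protease of the mitotic checkpoint that also acts on H2B, had 1.02 and 1.14 FPKM in KO spermatogonia, against 3.49 and 3.66 FPKM in wild-type spermatogonia (limma, log2 change -1.14, adjusted p = 0.473). In each of the 3 genes the 2 genotypes did not overlap, but none passed over all genes. Of all genes 16.9% had both KO libraries above both wild-type libraries in spermatogonia and 19.6% had both below, and these 3 were chosen by their p. Beside them, the 9 spermatogonial markers in the table summed to 186 to 243 FPKM in KO and 264 to 344 FPKM in wild-type spermatogonia, and 4 T and NK lymphocyte markers to 66.4 to 74.8 FPKM in KO and 18.2 to 60.7 FPKM in wild type. Of these lists, 7 of the 9 spermatogonial estimates were negative with 0 called, and 2 of the 4 lymphocyte markers were called higher in KO. Their part in these values was not tested.

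In MII spermatocytes the 8 members with an unadjusted p under 0.05 (Usp1, Usp2, Usp4, Usp16, Usp32, Usp42, Usp44 and Usp47) had lower estimates in KO. Of all genes 13.3% had such a p in this comparison, and their direction was not counted. Usp44 had 3.68 and 5.68 FPKM in KO MII spermatocytes, against 8.81 and 20.9 FPKM in wild-type MII spermatocytes (limma, log2 change -1.39, adjusted p = 0.098). Usp42, a nuclear speckle protease that acts on p53, had 8.45 and 13.1 FPKM in KO MII spermatocytes, against 14.02 and 35.1 FPKM in wild-type MII spermatocytes (limma, log2 change -1.01, adjusted p = 0.197). Usp32, a Golgi and endosome protease of Rab7, had 10.3 and 15.4 FPKM in KO MII spermatocytes, against 17.7 and 35.8 FPKM in wild-type MII spermatocytes (limma, log2 change -0.95, adjusted p = 0.215). Both KO libraries were below both wild-type libraries in these 3 genes, which were chosen by their p, as in 18% of all genes, and wild-type replicate 2 was well above wild-type replicate 1 in each. Without wild-type MII replicate 1 all 3 were called (limma, log2 changes of -1.97, -1.64 and -1.44, adjusted p of 0.0027, 0.0041 and 0.016) and the member count was 5. Without wild-type MII replicate 2 the log2 changes were -0.81, -0.38 and -0.46 (limma adjusted p of 0.804, 1.0 and 1.0). The 10 late spermatocyte markers summed to 129 to 202 FPKM in KO MII and 258 to 793 FPKM in wild-type MII, the 9 round spermatid markers to 43.7 to 82.4 FPKM in KO and 97.0 to 345 FPKM in wild type. All 10 and all 9 estimates were negative and 0 were called, and their part in the lower KO values was not tested. Averaged over the 4 cell types, Usp44 had a log2 change -0.70 ± 0.18, adjusted p = 0.156, Usp11 0.57 (adjusted p = 0.292) and Usp42 -0.41 (adjusted p = 0.404) in limma.

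In spermatids no member had an unadjusted p under 0.05. Of 46 estimates 37 were negative, a share that was not counted over all genes. Their median log2 change was -0.11, beside -0.02 over all genes. The smallest p belonged to Usp35, Usp54 and Usp47. Usp35, a protease linked to mitochondrial turnover, had 0.0550 and 0.210 FPKM in KO spermatids, against 0.644 and 0.467 FPKM in wild-type spermatids (limma, log2 change -0.46, adjusted p = 1.0). Usp54 had 9.75 and 9.11 FPKM in KO spermatids, against 10.1 and 16.002 FPKM in wild-type spermatids (limma, log2 change -0.40), and Usp47 had 234 and 191 FPKM in KO spermatids, against 231 and 316 FPKM in wild-type spermatids (limma, log2 change -0.35). KO and wild-type libraries did not overlap for Usp35 and Usp54, as both KO libraries were below both wild-type libraries in 15.9% of all genes, and they overlapped for Usp47. The 9 elongating spermatid markers summed to 6642 to 9477 FPKM in KO and 11954 to 13458 FPKM in wild-type spermatids. That sum was lower through Prm1, Prm2, Tnp1 and Tnp2 alone, while the means of Akap4, Gapdhs, Oaz3, Odf1 and Smcp were higher in KO. The median log2 change of the 9 was 0.04 with 0 called, and their part in the lower estimates was not tested.

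Between wild-type spermatogonia and MI spermatocytes most of the family changed, in both directions. Of the 46 genes 26 were called (56.5% of the members, where 51.9% of all genes were called). In MI spermatocytes 14 were higher (30.4% of members, 26.3% of all genes) and 12 lower (26.1% of members, 25.7% of all genes), which is near the background in each direction. Of all genes 39.1% had both MI libraries above both spermatogonial libraries and 41% had both below, so separation of single genes in this step is common. With quantile normalization, which moves the median of all genes to -0.25, the split was 12 higher and 19 lower. The median log2 change of the members was -0.12, beside -0.07 over all genes. Without wild-type MI replicate 2 there were 16 calls.

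Of 6 members listed under endosomes and receptor traffic, 4 were higher and 1 lower in MI spermatocytes, with a median log2 change of 1.81. The member that was not called was Usp6nl, which is no protease (0.17, limma adjusted p = 0.684). Usp2, which acts on cyclin D1 and is needed for full male fertility in mice, had the largest rise of the family (log2 change 3.87 ± 0.45, adjusted p = 1.3e-05, limma). It had 4.86 and 7.42 in spermatogonia, 79.3 and 71.8 in MI, 5.50 and 12.4 in MII and 139 and 183 in spermatids (FPKM, KO). Usp2 in wild type had 5.84 and 5.50 in spermatogonia, 75.6 and 124 in MI, 10.1 and 30.6 in MII and 160.0 and 165 in spermatids. Every MI library of either genotype was above every spermatogonial library. Usp8 and Usp32 were also higher in wild-type MI spermatocytes (limma, log2 changes 2.25 and 1.61, adjusted p = 0.00014 and 0.0014), as was Usp20 (2.01, adjusted p = 0.01). Usp32 in KO had 36.4 and 50.4 in spermatogonia, 107 and 107 in MI and 144 and 105 in spermatids FPKM. Usp32 in wild type had 38.8 and 46.2 in spermatogonia, 122 and 142 in MI and 128 and 169 in spermatids FPKM, so MI spermatocytes and spermatids were alike in range. Usp33, the relative of Usp20 in adrenergic receptor recycling, went the other way (-1.04, adjusted p = 0.015), though 35.3% of its transcript overlaps Gm43857 on the other strand.

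Histone proteases split by gene. Of 10 listed members, 4 were higher and 3 lower in MI spermatocytes (median log2 change -0.23). Usp44 rose (log2 change 2.98 ± 0.35, adjusted p = 1.6e-05, limma), with 26.95 and 29.3 in MI and 112 and 167 in spermatids FPKM in KO. Usp44 in wild type had 3.49 and 3.66 in spermatogonia, 30.7 and 39.98 in MI, 8.81 and 20.9 in MII and 146 and 122 in spermatids FPKM, so every later fraction was above the spermatogonia. Usp46 also rose (log2 change 2.40 ± 0.30, adjusted p = 2.8e-05, limma), with 4.88 and 7.29 in MI, 9.11 and 11.1 in MII and 12.4 and 13.2 in spermatids FPKM in KO. Usp46 in wild type had 0.381 and 1.05 in spermatogonia, 6.89 and 8.93 in MI, 9.78 and 8.03 in MII and 13.3 and 13.02 in spermatids FPKM and was the lowest member in wild-type spermatogonia. Usp16, a protease of H2A in mitosis, and Usp21 were the other 2 that were higher (limma, log2 changes 2.25 and 1.36, adjusted p = 7.3e-05 and 0.023). Usp22, the H2B protease of the SAGA coactivator complex, fell (log2 change -2.03 ± 0.44, adjusted p = 0.0017, limma). Usp22 had 31.05 and 32.8 in spermatogonia, 6.04 and 10.6 in MI, 31.3 and 40.6 in MII and 1.06 and 4.73 in spermatids (FPKM, KO). Usp22 in wild type had 22.5 and 42.6 in spermatogonia, 6.34 and 7.36 in MI, 33.6 and 32.7 in MII and 2.54 and 1.37 in spermatids. MI spermatocytes and spermatids were below the other 2 fractions in both genotypes. The 8 macrophage markers had this order too. In wild type they summed to 292 to 476 FPKM in spermatogonia and 2.03 to 2.54 FPKM in MI spermatocytes. The sums were 279 to 501 FPKM in MII spermatocytes and 5.85 to 6.63 FPKM in spermatids. Their part in the levels of Usp22 was not tested.

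Members of splicing and the nucleolus gave 3 rises and 2 falls among 6 (median log2 change 0.61). Usp4 had a log2 change 2.93 ± 0.26, adjusted p = 1.8e-06 in limma. Usp4 had 49.7 and 39.6 in MI, 14.1 and 15.9 in MII and 82.8 and 58.5 in spermatids FPKM in KO. Usp4 in wild type had 4.33 and 4.43 in spermatogonia, 38.1 and 41.8 in MI, 20.4 and 25.5 in MII and 74.6 and 77.4 in spermatids FPKM, with no overlap between the spermatogonia and any later fraction. Usp42 rose as well (2.14, adjusted p = 0.00022), with 13.4 and 14.2 in spermatogonia, 74.9 and 68.4 in MI and 108 and 89.9 in spermatids FPKM in KO. Usp42 in wild type had 15.3 and 18.03 in spermatogonia, 69.99 and 84.3 in MI and 118 and 123 in spermatids FPKM. Usp36, the nucleolar protease that stabilises RNA polymerase I, fell (log2 change -1.53 ± 0.29, adjusted p = 0.00069, limma). Usp36 had 4.08 and 5.25 in spermatogonia, 1.92 and 1.44 in MI, 3.27 and 4.13 in MII and 0.176 and 0.664 in spermatids (FPKM, KO). Usp36 in wild type had 6.32 and 5.83 in spermatogonia, 1.73 and 1.21 in MI, 3.46 and 3.81 in MII and 0.656 and 0.356 in spermatids FPKM, with all spermatid libraries under 1 FPKM. Like the macrophage markers above, Usp36 was higher in spermatogonia and the MII fraction than in MI spermatocytes and spermatids. The part of those markers was not tested.

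The X and Y members fell together in this step. Of 6, 5 were lower in wild-type MI spermatocytes and 0 higher, beside 54.7% of 483 X-linked, 75.0% of 8 Y-linked and 24.5% of 12170 autosomal genes called lower. Usp26 had the largest fall of the family (log2 change -2.13 ± 0.48, adjusted p = 0.0021, limma), followed on these chromosomes by Usp11 (-1.43), Usp27x (-1.43), Usp9x (-1.42) and Usp9y (-1.33), with adjusted p from 0.0068 to 0.011. Usp51 was not called (-0.32, adjusted p = 0.492). The fall of Usp11 lost its call without wild-type spermatogonia replicate 2 (log2 change -0.95, limma adjusted p = 0.098) and without wild-type MI replicate 2 (-1.16, adjusted p = 0.074). X-linked genes as a whole had a median log2 change of -1.24, beside -1.43 for the 6 members. Spermatogonial fractions also held macrophage markers, 8 of 8 in the table, at 292 to 476 FPKM in wild type, against 2.03 to 2.54 FPKM in wild-type MI spermatocytes, and their part in the falls was not tested.

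The remaining lists were small. DNA repair and cell cycle members gave 2 rises (Usp1 and Usp47) and 1 fall (Usp28, a protease that stabilises Myc) among 8. Mitochondrial and endoplasmic reticulum members gave 1 rise among 3, which was Usp30 of the mitochondrial outer membrane (1.55, limma adjusted p = 0.0012). Of Usp5 and Usp14, which act on free ubiquitin chains and at the proteasome, Usp14 was lower (-0.77, adjusted p = 0.017), with 45.9% of its transcript overlapping Thoc1 on the other strand. Usp39, Usp50, Usp53 and Usp54, which have been classed as lacking protease activity, gave 0 calls at the adjusted threshold, with limma adjusted p of 0.489, 0.128, 0.294 and 0.111.

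**Figure D4:**
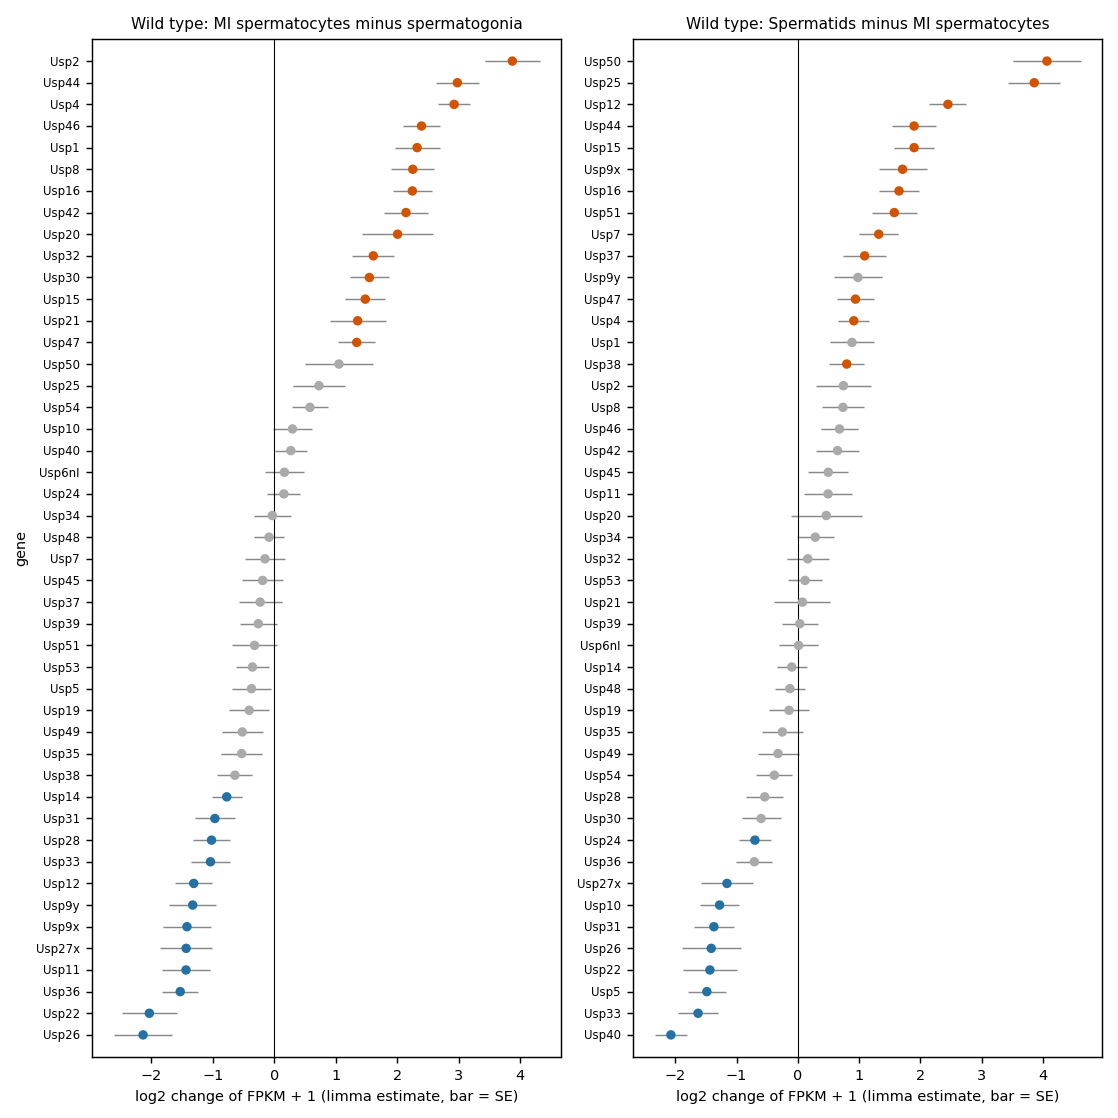
Limma log2 change of FPKM + 1 (x axis, bars are standard errors) of the 46 genes (y axis) for wild-type MI spermatocytes minus spermatogonia and wild-type spermatids minus MI spermatocytes, with genes called higher in orange, called lower in blue and not called in grey. Usp2 leads the first step with 3.87, and Usp50 and Usp25 lead the second with 4.07 and 3.86.

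Wild-type spermatids were compared with MI spermatocytes directly, because the MII fraction held somatic transcripts. Of the 46 genes 22 were called (42.3% of all genes), of which 13 were higher in spermatids (28.3% of members, 22.6% of all genes) and 9 lower (19.6% of members, 19.8% of all genes). With quantile normalization, which moves the median of all genes to -0.17, there were 14 calls, 6 higher and 8 lower, and without the MII libraries in the fit there were 27, 18 higher and 9 lower. There were 14 calls without wild-type MI replicate 1 and 14 without wild-type spermatid replicate 2. The median log2 change of the members was 0.22, beside -0.01 over all genes.

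Usp50 (XLOC_012741, chr2:126709096-126783470, minus strand), whose human protein lacks protease activity, had the largest rise (log2 change 4.07 ± 0.56, adjusted p = 5.7e-05, limma). It had 1.15 and 0.806 in spermatogonia, 2.52 and 4.68 in MI, 1.02 and 7.28 in MII and 63.01 and 136 in spermatids (FPKM, KO). Usp50 in wild type had 1.01 and 1.09 in spermatogonia, 2.95 and 3.58 in MI, 3.82 and 8.72 in MII and 66.1 and 74.7 in spermatids. Every spermatid library was above every library of the other fractions, in both genotypes. Usp25 (XLOC_008039, chr16:77013706-77116780, plus strand), a protease of immune receptor signalling and protein quality control, rose likewise (log2 change 3.86 ± 0.42, adjusted p = 1.2e-05, limma). Usp25 had 11.7 and 7.74 in spermatogonia, 9.36 and 21.7 in MI, 23.02 and 47.1 in MII and 136 and 208 in spermatids (FPKM, KO). Usp25 in wild type had 7.57 and 6.24 in spermatogonia, 14.9 and 9.71 in MI, 31.9 and 36.3 in MII and 154 and 229 in spermatids. Its order of levels in wild type was spermatids, MII, MI and spermatogonia, and MI and spermatogonia were not called as different (0.73, limma adjusted p = 0.165).

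Histone proteases gave 5 rises and 2 falls among 10 (median log2 change 0.999). Usp12, which shares the partners Wdr48 and Wdr20 with Usp46, rose (log2 change 2.45 ± 0.30, adjusted p = 2.6e-05, limma). Usp12 had 15.01 and 19.2 in spermatogonia, 9.06 and 6.60 in MI, 10.1 and 10.5 in MII and 31.8 and 59.3 in spermatids (FPKM, KO). Usp12 in wild type had 16.99 and 20.4 in spermatogonia, 6.91 and 6.95 in MI, 10.1 and 10.1 in MII and 47.6 and 37.6 in spermatids, so MI spermatocytes were lowest. Usp44 rose again (log2 change 1.90 ± 0.35, adjusted p = 0.00071, limma), a call that was lost with quantile normalization (0.94, adjusted p = 0.063). Usp16, Usp7 and Usp51 were the others that rose (1.65, 1.32 and 1.57, limma adjusted p = 0.00096, 0.0047 and 0.0037). Usp22 fell (log2 change -1.44 ± 0.44, adjusted p = 0.018, limma), a call that was lost without wild-type MI replicate 1 (-1.53, adjusted p = 0.059), wild-type MI replicate 2 (-1.34, adjusted p = 0.086) or wild-type spermatid replicate 2 (-1.15, adjusted p = 0.14). Usp27x fell as well (-1.16, adjusted p = 0.039).

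The largest falls came from several roles. Usp40 (log2 change -2.07 ± 0.26, adjusted p = 3.1e-05, limma) had 9.07 and 12.96 in spermatogonia, 19.04 and 17.8 in MI, 11.8 and 13.05 in MII and 2.73 and 3.13 in spermatids (FPKM, KO). Usp40 in wild type had 13.6 and 13.6 in spermatogonia, 17.4 and 15.9 in MI, 11.3 and 8.95 in MII and 3.65 and 2.77 in spermatids, and spermatids were below all other fractions without overlap. Usp33 (log2 change -1.63 ± 0.32, adjusted p = 0.0011, limma) had 13.1 and 23.5 in spermatogonia, 9.33 and 12.1 in MI, 17.97 and 19.6 in MII and 2.75 and 2.77 in spermatids (FPKM, KO). Usp33 in wild type had 19.5 and 31.3 in spermatogonia, 13.3 and 9.98 in MI, 18.8 and 15.8 in MII and 3.37 and 2.76 in spermatids, again lowest in spermatids. Usp5, which takes apart unanchored ubiquitin chains, fell too (log2 change -1.49 ± 0.31, adjusted p = 0.0018, limma). Usp5 had 10.2 and 9.16 in spermatogonia, 12.2 and 6.38 in MI, 12.5 and 10.1 in MII and 2.63 and 2.51 in spermatids (FPKM, KO). Usp5 in wild type had 9.89 and 8.84 in spermatogonia, 7.30 and 6.75 in MI, 8.21 and 7.39 in MII and 1.37 and 2.45 in spermatids, with every spermatid library below every library of the other fractions. On the sex chromosomes 2 members rose in spermatids (Usp9x, 1.71, and Usp51, 1.57) and 2 fell (Usp26, -1.41, and Usp27x, -1.16), where 36.0% of X-linked genes were called higher and 16.6% lower. Usp35 and Usp54 were not called in this step. Usp35 had 1.98 and 1.45 in spermatogonia, 0.678 and 0.860 in MI and 6.09 and 11.9 in MII FPKM in KO. Usp35 in wild type had 1.32 and 2.08 in spermatogonia, 1.24 and 0.531 in MI and 8.33 and 6.90 in MII FPKM. Usp54 had 9.23 and 11.96 in spermatogonia, 12.9 and 17.2 in MI and 19.3 and 27.6 in MII FPKM in KO. Usp54 in wild type had 10.3 and 11.7 in spermatogonia, 15.4 and 18.6 in MI and 15.99 and 17.9 in MII FPKM, a narrow range over all fractions.

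The MII fraction of the wild type differed from MI spermatocytes in 27 members (57.2% of all genes), 7 higher (30%) and 20 lower (27.2%), with a median log2 change of -0.72 beside 0.05 over all genes. The 7 higher members were Usp35 (2.21), Usp11 (2.19), Usp22 (2.12), Usp9x (1.84), Usp27x (1.78), Usp25 (1.43) and Usp36 (0.92), with limma adjusted p from 0.00011 to 0.016. Spermatids then differed from the MII fraction in 34 members (73.8% of all genes), 25 higher (38.8%) and 9 lower (35%), with a median of 0.81 beside 0.11, and quantile normalization gave 22 higher and 13 lower. Of those 7 genes 5 were among the 9 lower ones, and Usp9x was not called and Usp25 was higher. Both steps use the same wild-type MII libraries with opposite sign, which favors such reversals in advance. Their share over all genes was not counted. Late spermatocyte markers were in the table for 10 of 10, with none at 0. They summed to 258 to 793 FPKM in wild-type MII and 2767 to 3075 FPKM in wild-type MI spermatocytes. Leydig and macrophage sums are given above, and the part of all these lists in both steps was not tested. Without wild-type MI replicate 2 the first of these steps had 14 calls.

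The KO libraries gave their own measure of the same steps. KO MI spermatocytes differed from KO spermatogonia in 25 members (51.2% of all genes), 16 higher (26.5%) and 9 lower (24.7%), or 12 higher and 15 lower with quantile normalization. Of these, 21 were called in the same direction in the wild type, which is 84.0% of the KO calls and 80.8% of the wild-type calls. The 5 called in the wild type alone were Usp9x, Usp9y, Usp11, Usp27x and Usp33, and the 4 called in KO alone were Usp38, Usp40, Usp51 and Usp53. KO spermatids differed from KO MI spermatocytes in 19 members (42.4% of all genes), 9 higher (23.6%) and 10 lower (18.8%), or 5 higher and 13 lower with quantile normalization. Of these, 16 were called in the same direction in the wild type, which is 84.2% of the KO calls and 72.7% of the wild-type calls. The shares of common calls over all genes were not counted for either step, so whether these shares are particular to the family is not known. Usp51 was called in opposite directions, with a log2 change of -1.32 ± 0.37 in KO (adjusted p = 0.011) and 1.57 ± 0.37 in the wild type (adjusted p = 0.0037, limma). These calls of Usp51, and its call in KO alone above, use the same MI libraries as its genotype call. They are no separate evidence for that call. A call in 1 genotype alone is no test of a difference, and in the limma F test of that difference 0 members passed at the adjusted threshold and 5 had an unadjusted p under 0.05.

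Relatives within the family had different profiles in the wild type. Of the SAGA-type H2B proteases Usp22, Usp27x and Usp51, Usp22 and Usp27x were high in spermatogonia and the MII fraction and low in MI spermatocytes and spermatids, while Usp51 was highest in spermatids. The macrophage sums above had the order of Usp22 and Usp27x, as had 4 myoid and endothelial markers. These summed in wild type to 38.5 to 74.1 FPKM in spermatogonia and 4.24 to 9.75 FPKM in MI spermatocytes. They summed to 71.3 to 119 FPKM in MII spermatocytes and 2.09 to 2.59 FPKM in spermatids. The part of such cells in these profiles was not tested. Usp51 and Usp27x have 2 exons each and Usp22 has 13 in their longest transcripts, and the 3 transcripts share no 50-base word with each other or with any other gene. Usp4 and Usp15 rose together in MI spermatocytes (2.93 and 1.48) and again in spermatids (0.91 and 1.90), while their X-linked relative Usp11 fell in MI spermatocytes. Usp12 fell and Usp46 rose in MI spermatocytes (-1.31 and 2.40). Usp28 fell in MI spermatocytes (-1.02) and Usp25, its closest relative, rose in spermatids. Usp16 reached 159.9 and 230.1 FPKM in wild-type spermatids, where Usp45, a protease of the Ercc1 repair nuclease, had 11.7 and 10.9 FPKM. These are levels per length within the same libraries, given as a description.

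Of 68 other genes of the ubiquitin pathway, 0 were called between genotypes with limma in any cell type, in the average or in the F test. At an unadjusted p under 0.05 there were 3 in spermatogonia, 0 in MI, 2 in MII, 0 in spermatids, 3 in the average and 1 in the F test. All genes gave 6.6%, 5.84%, 13.3%, 2.17%, 11% and 6.49% in the same order. The counts below stand beside all genes, of which 26.3% were called higher and 25.7% lower in wild-type MI spermatocytes than in spermatogonia. In spermatids 22.6% of all genes were called higher and 19.8% lower than in MI spermatocytes. Of 34 other deubiquitinases tested, 10 were higher and 6 lower in wild-type MI spermatocytes than in spermatogonia, and 9 were higher and 8 lower in spermatids than in MI spermatocytes. Stambp, an endosomal metalloprotease, rose in MI spermatocytes (3.14) and fell in spermatids (-2.71), Tnfaip3, an inhibitor of NF-kB signalling, fell in MI spermatocytes (-3.38), and Otub2 rose in spermatids (3.91). T and NK lymphocyte markers summed to 18.2 to 60.7 FPKM in wild-type spermatogonia and 0.179 to 0.308 FPKM in wild-type MI spermatocytes. Macrophage sums, given above, fell as well, and the part of such cells in the fall of Tnfaip3 was not tested. Of 15 partner proteins, 4 were higher and 5 lower in MI spermatocytes and 5 higher and 3 lower in spermatids. Wdr48, the activator of Usp1, Usp12 and Usp46, rose in MI spermatocytes (2.47), as did Gmps, a partner of Usp7 (1.65), and G3bp1, a partner of Usp10, fell in spermatids (-1.52). Of 8 genes for ubiquitin and its activating enzymes, 6 were lower and 0 higher in MI spermatocytes. These included the X-linked Uba1 (-2.22), its Y-linked copy Uba1y (-2.31) and the autosomal Uba6 (-1.56). Of 11 histone ubiquitin ligases, 3 were higher and 3 lower in MI spermatocytes and 3 higher and 4 lower in spermatids. Pcgf6, a subunit of a variant Polycomb ligase of H2A, rose in MI spermatocytes (3.76), Rnf20, a ligase of H2B, fell in spermatids (-2.25), and Ubr2, an N-recognin needed for male meiosis in mice, fell in both steps (-1.53 and -1.86).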

How the data were processed

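The deposited table held FPKM values to which the authors had added 1, and the added 1 was subtracted here. The submitters' processing notes list build mm10, STAR 2.7.6a, Cufflinks 2.2.1, FastQC 0.10.1, cutadapt and Trim Galore 0.6.3. The labels' protocol names polyA enrichment. Not given in the sources used here are the annotation, the strand setting and any further scaling. Of 13101 rows, 1 with a letter in a value was left out, and 3.33% of values were 0. Such a 0 can be a failed estimate. Read numbers are unknown, so no counting intervals are given.

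Groups follow the sample titles. The 13099 genes that reached 1 FPKM in 2 or more libraries were analysed as log2(FPKM + 1), a scale that understates changes of low genes, with limma 3.58.1 in R 4.3.3 (8 group means, 8 residual degrees of freedom, eBayes with a trend) and Benjamini-Hochberg adjustment at 0.05 over all genes. Contrasts of fractions within a genotype share libraries, as both wild-type steps share the MI libraries. The wild-type steps into and out of the MII fraction likewise share the MII libraries.

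Members were taken by symbol. The members, gene lists and tests were chosen with earlier results of these data known. Values of all libraries are given for Tex10, for members called between genotypes or among the 3 of smallest p there, for members on X or Y, for the 4 largest called rises and falls in wild-type MI minus spermatogonia and spermatids minus MI, and for the 3 of highest level in each wild-type cell type. Other members named are relatives or list members. Gene positions and transcripts are from GENCODE M21 on GRCm38, and promoter windows from RefSeq (GRCm38.p6).

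On simulated data for the MI comparison (13099 genes, 200 changed), 82% of changes of log2 2 and 5% of changes of log2 1 were called, with 4 false among 91 calls. The changed genes were drawn above a floor of the wild-type MI level. Low genes such as Usp51, Usp11 and Usp9y did not reach that floor, so these shares do not cover them. Alternatives were pseudocounts of 0.1 and 5, no filter or 5 FPKM, median-of-ratios and quantile scaling, no trend, array weights, a replicate block, the cell type field, the compared libraries alone, no MII libraries and each library left out. Figures were drawn with matplotlib 3.10.9 and tables made with pandas 2.3.3 in Python 3.11.15.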

Additional observations from a re-analysis of the deposited data

How the results depend on the processing

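With 2 libraries a group and unknown read depth, changes of log2 1 were mostly missed in the simulated MI comparison, whose changed genes were not low ones. Values of low genes such as Usp51 depend on the pseudocount. The count of members called between genotypes was 0 in spermatogonia and in spermatids under every alternative run. In MI spermatocytes the count of 1 became 0 with a pseudocount of 0.1 and with the compared libraries alone, and 11 with grouping by the cell type field, and ran from 0 to 1 with each library left out. In MII spermatocytes the count of 0 became 1 with quantile normalization and 15 with the field, and ran from 0 to 5. The average ran from 0 to 2 and the F test from 0 to 1 with a library left out, and the F test gave 18 with the field. Grouping by the field mixes cell types in 6 KO libraries by the check against wild-type libraries. It reversed Usp32 (2.25), Usp42 (1.96) and Usp44 (1.94) in MII spermatocytes and gave 0 calls for KO MI minus KO spermatogonia. For wild-type MI minus spermatogonia the 26 calls ran from 16 to 27 with a library left out, for MII minus MI the 27 from 14 to 28, for spermatids minus MI the 22 from 14 to 25 (14 with quantile normalization), and for KO MI minus KO spermatogonia the 25 from 16 to 26. The 16 came without KO spermatogonia replicate 2 or KO MI replicate 1. The cause was not tested.

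Whether replicate numbers in the titles pair the samples is not known. The correlation of same-numbered deviations across genes was 0.203 in spermatogonia, 0.004 in MI, 0.308 in MII and -0.127 in spermatids. With 2 libraries a group these values cannot decide it. With the replicate number as a block the count in MII spermatocytes was 1 (Usp44, limma adjusted p = 0.044, against 0.098 without it), and the other counts stayed within 1.5 times.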

Other observations

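Some members differed widely between the 2 libraries of a group, chosen here after their values were seen. Usp20 had 26.0 and 4.68 FPKM in KO MII spermatocytes and 5.58 and 7.01 FPKM in wild-type MII spermatocytes. Usp50 had 63.01 and 136 FPKM in KO spermatids and 66.1 and 74.7 FPKM in wild-type spermatids. Usp27x had 0.0537 and 1.60 FPKM in KO spermatids and 0.485 and 0.349 FPKM in wild-type spermatids. None of these groups was called as different between genotypes.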
